A study of Mus musculus with 6 samples.

Results

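The 53 genes described here copy the genome in S phase. They encode the replicative helicase and the factors that load and fire it, the DNA polymerases and their sliding clamp, enzymes that make deoxynucleotides, the activating E2F factors, and proteins that restore chromatin and DNA methylation behind the fork. They were chosen by name, as a fixed list of 53 mouse gene symbols matched to the gene names of the array's probes. This list and the other gene lists below were chosen with earlier results of these data known. All 53 had a probe, and all 53 were among the 13197 genes that passed the filter on dim probes. All were also well above background on all 6 arrays, as were 89.1% of the tested genes.

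RNA came from the forelimb autopod, the part of the limb bud that forms the hand, of C57BL/6 mouse embryos at stage E11.5. All embryos carried the Sox9-EGFP knock-in, in which a green fluorescent protein marks cells that express Sox9, the transcription factor of the cartilage lineage. Mesenchymal cells were sorted by fluorescence into those with the reporter (Sox9-EGFP positive) and those without it (negative), 3 samples per group, each from about 10 pooled autopods, and each sample was hybridised to 1 Agilent 1-colour array. The labels read here do not tell the sort gates or whether samples had separate litters or sorts, so p-values measure the spread between these samples only.

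Replication starts where the origin recognition complex, with Cdc6 and Cdt1, loads the Mcm helicase onto DNA in G1. The kinases of S phase then turn it into an active helicase with Cdc45 and the GINS complex, and the polymerases follow, held on DNA by the ring-shaped clamp PCNA. Many of these genes are transcribed at the G1 to S transition by E2F factors, which the retinoblastoma family holds back in resting cells.

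E2F factors bind variants of a short element, and 4 of them were searched for in the promoters of the genes: TTTCGCGC, TTTGGCGC, TTTCCCGC and TTTGCCGC. Both strands were read, where the same elements appear as GCGCGAAA, GCGCCAAA, GCGGGAAA and GCGGCAAA. A promoter is here the stretch from 250 bases before to 50 bases after the gene start in a table of mouse RefSeq promoters (GRCm38.p6). The windows below hold every match that lay wholly before the gene start in a replication gene, and are printed because E2F factors are the best known common regulators of these genes. Matches are in capitals, and each window reads 5′ to 3′ on the strand of its gene.
Mcm5, chr8:75109316-75109407 (+ strand): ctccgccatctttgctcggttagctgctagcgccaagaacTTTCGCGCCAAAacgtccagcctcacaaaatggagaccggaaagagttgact
Mcm6, chr1:128359706-128359855 (- strand): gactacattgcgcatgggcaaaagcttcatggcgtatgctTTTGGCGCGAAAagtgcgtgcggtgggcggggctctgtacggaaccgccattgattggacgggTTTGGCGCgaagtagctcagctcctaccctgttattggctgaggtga
Mcm7, chr5:138172001-138172088 (- strand): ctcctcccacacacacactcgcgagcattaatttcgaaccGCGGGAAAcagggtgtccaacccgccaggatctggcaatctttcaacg
Cdc6, chr11:98907973-98908060 (+ strand): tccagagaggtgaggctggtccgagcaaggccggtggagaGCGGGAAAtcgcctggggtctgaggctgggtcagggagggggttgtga
Orc1, chr4:108579387-108579453 (+ strand): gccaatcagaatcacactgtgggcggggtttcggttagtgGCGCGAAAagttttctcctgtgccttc
Rfc3, chr5:151651209-151651258 (- strand): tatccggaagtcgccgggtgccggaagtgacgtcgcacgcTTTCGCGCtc
Uhrf1, chr17:56304088-56304175 (+ strand): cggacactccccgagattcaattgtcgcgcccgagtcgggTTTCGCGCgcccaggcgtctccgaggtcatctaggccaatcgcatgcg
Dnmt1, chr9:20952795-20952873 (- strand): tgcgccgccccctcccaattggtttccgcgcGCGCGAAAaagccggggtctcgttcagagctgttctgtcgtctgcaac
E2f3, chr13:29986064-29986114 (- strand): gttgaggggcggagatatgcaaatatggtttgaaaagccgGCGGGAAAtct
Gins3, chr8:95633478-95633558 (+ strand): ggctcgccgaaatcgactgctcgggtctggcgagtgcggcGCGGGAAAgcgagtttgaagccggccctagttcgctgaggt
Pola1, chrX:93632246-93632333 (- strand): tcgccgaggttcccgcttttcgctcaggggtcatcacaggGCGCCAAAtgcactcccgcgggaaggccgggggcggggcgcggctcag

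In the Mcm5 window, and at the first match of Mcm6, an element on the strand of the gene and one on the other strand overlap, so that the capitals form one run. In all, 19 of the 46 genes with a promoter in the table held at least 1 match (41.3%). A match was held by 704 of all 27025 genes with a promoter (2.60%), and by 484 of the 10404 that were tested here (4.65%). The 19 genes held 26 matches, of which 14 lay before and 12 after the gene start, 11 on the strand of the gene and 15 on the other. By element, TTTGGCGC had 10 matches, TTTCGCGC and TTTCCCGC had 8 each, and TTTGCCGC had 0. The genes with matches only after the start or across it were Cdt1, E2f2, Lig1, Mcm3, Mcm8, Pold1, Pold3 and Pole2. A match is a string of letters, not evidence that a factor binds there. Mcm4, Rfc2, Prim2, Pole, Gins1, Gins2 and Gins4 were not matched to the table.

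**Figure D1:**
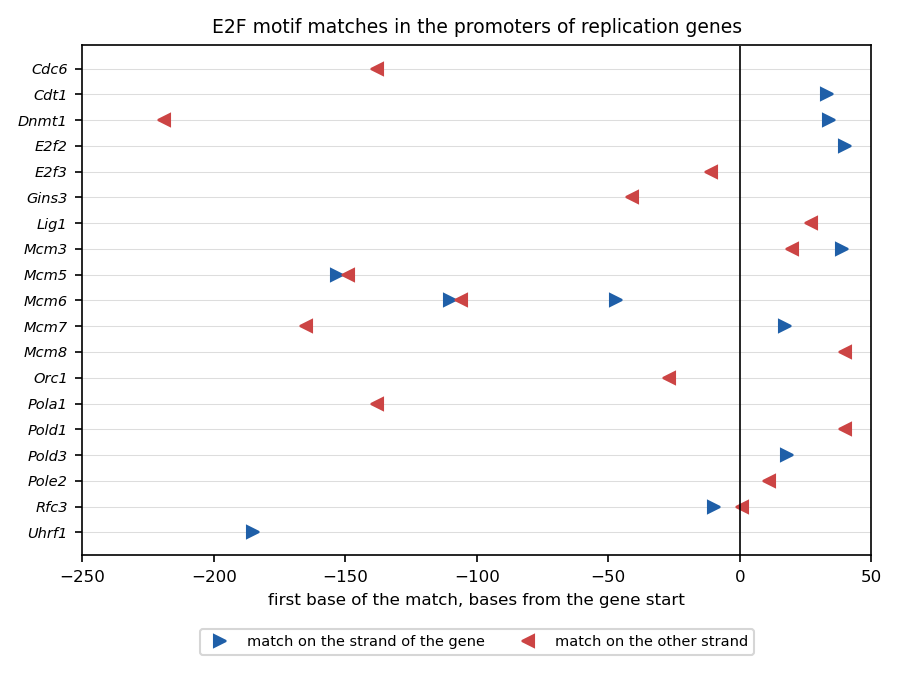
Positions of the E2F elements in the promoters of the 19 replication genes that held at least 1 match; the horizontal axis gives the distance of the match's first base from the gene start in bases, and the direction and colour of each triangle give the strand. Of the 26 matches, 14 lay before the start and 12 after it, between 219 bases before and 40 bases after.

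Levels are given as log2 of the processed signal relative to the 75th percentile of the array's non-control spots, so that 0 is the signal of that percentile. Levels of different genes come from different probes and are not compared with each other. Sox9 checked the labels: its levels were 3.52, 2.99 and 3.60 on the positive arrays and −0.88, −1.0 and −1.13 on the negative arrays, a 20.7-fold difference (adjusted p = 0.000146). The array of positive replicate 1 was dimmer than the others, with a 75th percentile of 126 against 385 to 478, and 24743 spots well above background against 29800 to 35277. Of all 13197 genes, limma called 4617 at an adjusted p below 0.05, 1400 higher and 3217 lower in the positive cells, and the median log2 difference of all genes was −0.18. Of the called genes 69.7% were lower. Under the other 4 ways of scaling the arrays that share was 53.7% to 55.4%, with a median of all genes between −0.04 and −0.03.

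Transcripts of DNA replication genes were less abundant in the Sox9-EGFP positive cells across almost the whole machinery. Of the 53 genes, 40 were called lower (75.5%, against 24.4% of all genes tested), 0 were called higher (against 10.6% of all genes) and 13 were not called. The difference was below 0 for 52 of the 53, all but Cdc7, against 63.7% of all genes. The shift was moderate and even: the median log2 difference was −0.77, which is 1.71-fold lower in the positive cells, with quartiles of −0.90 and −0.60 against −0.49 and 0.20 for all genes. Relative to the median of all genes it was −0.59, or 1.51-fold. No replication gene fell by more than 2.45-fold, and 7 fell by a log2 difference of at least 1, against 6.07% of all genes.

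The groups did not overlap for 45 of the 53 genes, with all 3 negative arrays above all 3 positive arrays; 36.3% of all genes showed this. All 40 called genes were among these 45. Both groups were present on all 3 slides, with 1 array apiece, and within the slides the median difference of the 53 genes was −0.71, −0.70 and −0.86, and that of all genes −0.14, −0.20 and −0.21. Of the 53 genes, 50 were lower in the positive sample on all 3 slides, against 46.8% of all genes. With slide as a block in the fit, 46 genes were called lower (against 27.3% of all genes), the 40 and Tyms, Mcm8, Slbp, Pola2, Cdc45 and Gins2. On the array of positive replicate 3 all genes lay below their own mean over the 6 arrays, while 8 lay above it in positive replicate 2 and 3 in positive replicate 1. On the negative arrays 49 to 52 lay above it.

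**Figure D2:**
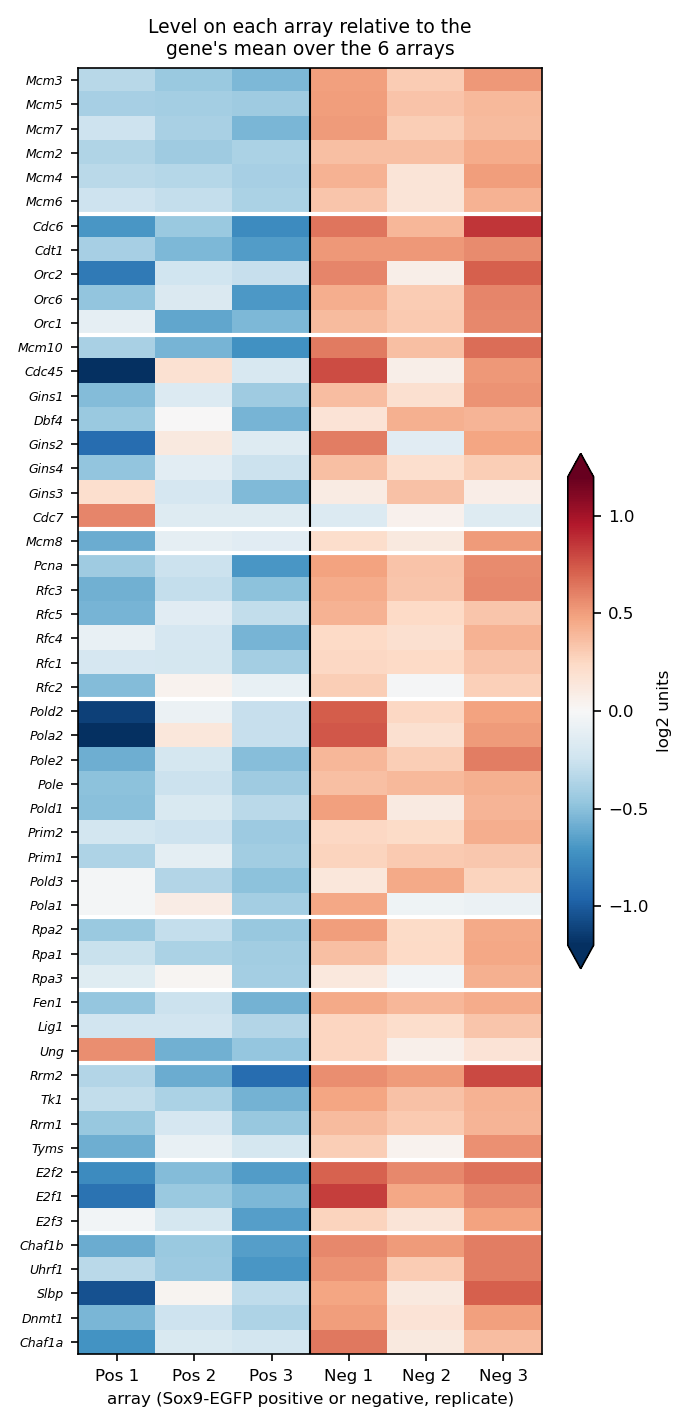
Level of each of the 53 replication genes on each of the 6 arrays relative to the gene's own mean over the arrays, in log2 units, with genes grouped by role and the positive arrays left of the black line. The 3 positive arrays are mostly blue (0 to 8 genes above their mean) and the 3 negative arrays mostly red (49 to 52 above), with the lightest columns at replicate 2 of each group.

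How many genes passed the test depended on the scaling of the arrays. The count of 40 fell to 35 with median centring (background 17.0% of all genes called lower), 27 with the deposited series matrix values (14.5%), 26 with normexp and quantile normalization (14.3%), and 23 with quantile normalization alone (13.3%). The calls that ended there were those of Mcm4, Mcm6, Orc2, Gins1, Gins4, Dbf4, Rfc1, Rfc4, Rfc5, Prim1, Prim2, Pold1, Pold2, Pold3, Rpa1, Lig1 and Chaf1a. The other 23 genes were called under all 5 scalings. The share of all genes called under all 5 is not given here, so the 23 have no background beside them. Under any of the scalings 0 replication genes were called higher, against 11.4% of all genes with quantile normalization. At a threshold of 0.01, 24 replication genes were called lower, against 10.4% of all genes. With the replicate number as a block, 23 were, against 9.86%. The labels do not say whether that number pairs samples. RNA was measured from whole sorted samples, so fewer cells in S phase and less of each transcript per cell cannot be told apart.

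**Figure D3:**
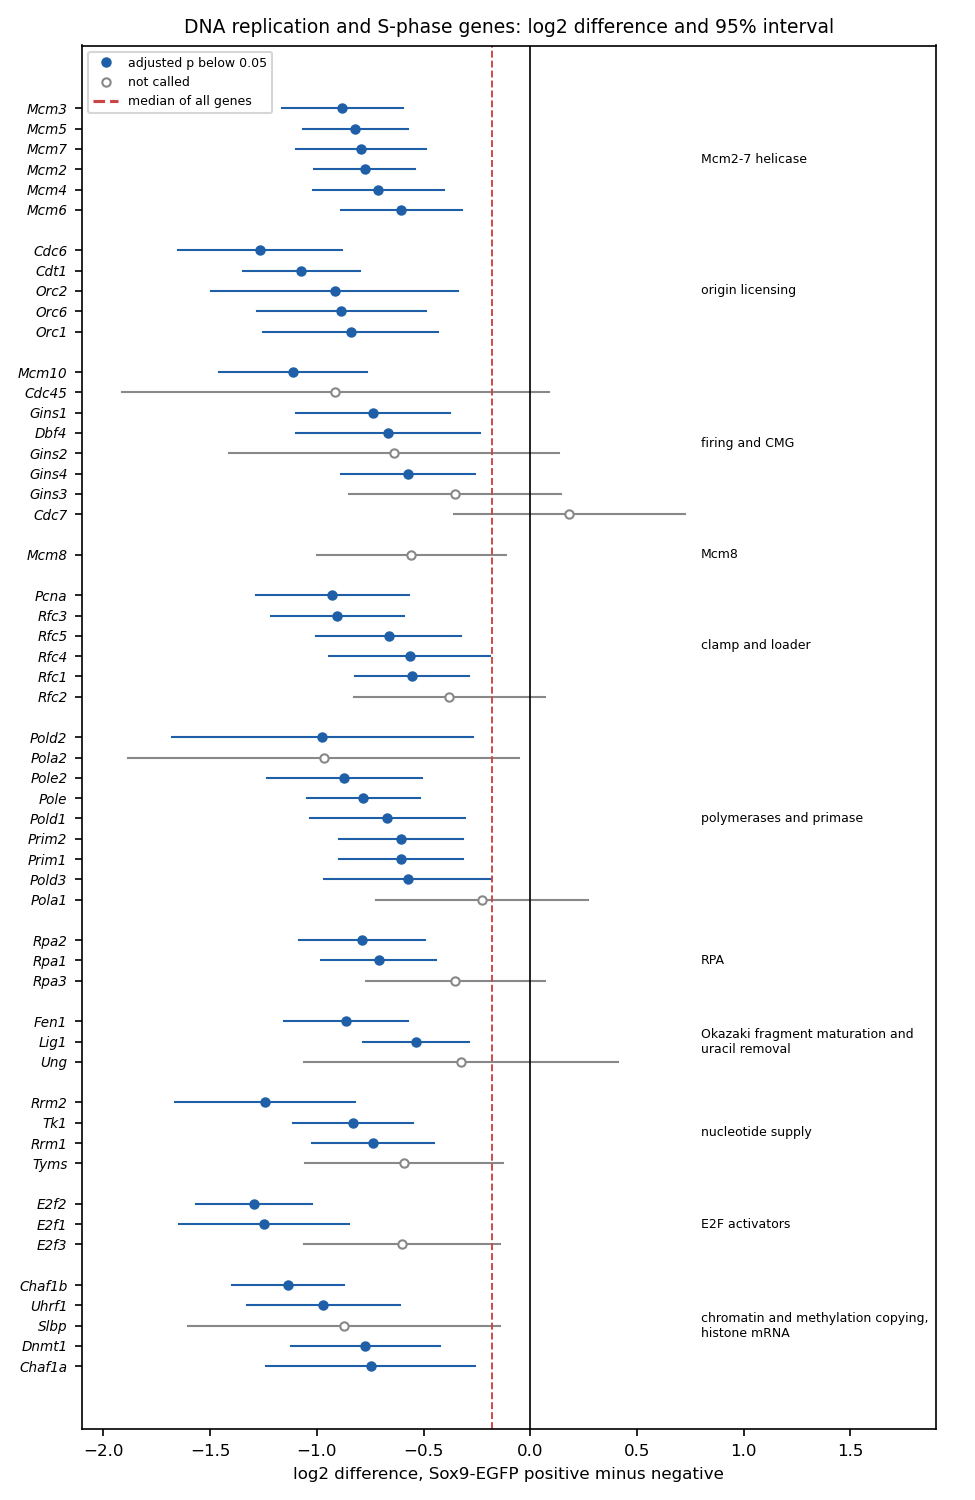
Log2 difference (Sox9-EGFP positive minus negative, 3 arrays per group) of each replication gene with its 95% interval from limma, grouped by role; filled points had an adjusted p below 0.05 over all 13197 genes, and the dashed line marks the median of all genes at −0.18. The filled points all lie left of the line, between −1.29 and −0.53, and Cdc7 alone lies right of 0.

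The helicase subunits Mcm2 to Mcm7 form the ring that unwinds DNA ahead of the polymerases, and all 6 were lower in the positive cells, with a median log2 difference of −0.78. Mcm5 had levels of 4.91, 4.90 and 4.88 on the positive arrays and 5.81, 5.65 and 5.69 on the negative arrays. The positive arrays lay within a few hundredths of each other and well below every negative one, at −0.82 ± 0.10 (the log2 difference with its SE, from 3 arrays a group; adjusted p = 0.00259). Mcm2 stood at 3.54, 3.47 and 3.51 against 4.26, 4.26 and 4.34 (−0.78 ± 0.10, adjusted p = 0.00271). For Mcm3 the levels were 5.49, 5.37 and 5.28 against 6.32, 6.13 and 6.34 (−0.88 ± 0.12, adjusted p = 0.00327). Mcm7, whose promoter window is printed above, had 6.16, 6.01 and 5.86 against 6.92, 6.70 and 6.78 (−0.79 ± 0.13, adjusted p = 0.00566). None of these genes had overlapping groups. The differences of Mcm4 (−0.71 ± 0.13, adjusted p = 0.00813) and Mcm6 (−0.60 ± 0.12, adjusted p = 0.0108) were the smallest of the ring. Mcm6, with 3 E2F matches before its start, had levels of 6.86, 6.83 and 6.73 against 7.44, 7.26 and 7.53. Neither of these last calls held with quantile normalization (adjusted p = 0.0816 for Mcm4 and 0.118 for Mcm6), and that of Mcm6 ended without negative replicate 1 (adjusted p = 0.0515).

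Licensing of origins in G1 depends on the origin recognition complex, the ATPase Cdc6 and the loader Cdt1. The 5 licensing genes of the list, Cdc6, Cdt1, Orc1, Orc2 and Orc6, all fell, with a median of −0.92. Cdt1 levels were 4.64, 4.50 and 4.36 on the positive and 5.56, 5.56 and 5.60 on the negative arrays. The negative arrays agreed within 0.03 (SD), and the difference was −1.07 ± 0.11 (2.10-fold, adjusted p = 0.00155). Cdc6, measured by a probe at chr11:98785169-98785228 (mm9), had levels of 0.15, 0.40 and 0.09 against 1.49, 1.25 and 1.70. Its lowest negative array was above its highest positive array by more than the range within either group, a 2.41-fold difference (−1.27 ± 0.16, adjusted p = 0.00273). A further Cdc6 probe gave −1.26 ± 0.46, with more scatter (adjusted p over probes 0.0825). Among the subunits of the recognition complex, Orc6 (−0.89), Orc1 (−0.84) and Orc2 (−0.92) fell by similar amounts, with adjusted p of 0.00918, 0.0121 and 0.0286. The other subunits, which are not among the 53 genes, were not called: Orc3 differed by −0.21 (adjusted p = 0.259), Orc4 by −0.38 (adjusted p = 0.122) and Orc5 by −0.44 (adjusted p = 0.229). The Orc1 call ended without negative replicate 3 (adjusted p = 0.0523), and that of Orc2 without positive replicate 3 or without negative replicates 1 or 3, where the largest adjusted p was 0.101.

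Firing turns the loaded helicase into the moving complex of Cdc45, the Mcm ring and GINS, with Mcm10 as an activator and the kinase Cdc7 with its partner Dbf4 as the trigger. Of the 8 genes of this role 4 were called lower, against 24.4% of all genes, and 7 had a difference below 0. Their differences ran from −1.11 to 0.18. Mcm10 levels were 3.87, 3.71 and 3.54 on the positive and 4.89, 4.63 and 4.94 on the negative arrays, 2.16-fold apart without overlap (−1.11 ± 0.14, adjusted p = 0.00295). The GINS subunits Gins1 (−0.74, adjusted p = 0.0124) and Gins4 (−0.57, adjusted p = 0.0177) and the kinase partner Dbf4 (−0.67, adjusted p = 0.0306) also fell. Each of these 3 calls ended when single arrays were left out, for Dbf4 with any array but positive replicate 2 and a largest adjusted p of 0.104. For Gins1 these arrays were negative replicates 1 and 3 (largest adjusted p 0.0508), and for Gins4 positive replicate 3 as well (largest adjusted p 0.0744). Gins2 (−0.64, 95% interval −1.41 to 0.13) and Gins3 (−0.35, −0.85 to 0.14) were not called.

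Cdc45, an essential part of the moving helicase, and the kinase Cdc7 were not called either. Cdc45 levels were −1.20, 0.35 and −0.03 on the positive and 0.94, 0.24 and 0.68 on the negative arrays. The groups overlapped because positive replicate 2 exceeded negative replicate 2, and the difference of −0.91 had an interval from −1.91 to 0.09. It was below 0 on every slide (−1.44, −0.33 and −0.97), with an adjusted p of 0.0373 with slide as a block. Cdc7 levels were −0.54, −1.28 and −1.28 against −1.29, −1.07 and −1.28. All arrays but the dim positive replicate 1 lay between −1.29 and −1.07, and the difference was 0.18 (95% interval −0.36 to 0.72, adjusted p = 0.569). It turned to −0.06 without positive replicate 1, and a further Cdc7 probe gave 0.10 ± 0.11. Cdc7 was thus the one gene of the 53 with a difference above 0, while its partner Dbf4 fell; that contrast was not tested.

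Mcm8, a helicase of recombination at damaged forks rather than of the Mcm2 to Mcm7 ring, was not called. Its levels were −0.32, 0.17 and 0.14 on the positive and 0.48, 0.39 and 0.79 on the negative arrays. The groups did not overlap, and the difference was −0.56 ± 0.18 (adjusted p = 0.0572). Its further probe gave −0.67 ± 0.15 (adjusted p over probes 0.0183).

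Of 6 genes of the clamp PCNA and the multi-subunit loader that opens it, 5 were called lower in the positive cells, against 24.4% of all genes. All 6 differences were below 0, with a median of −0.61. Rfc3, a loader subunit, had levels of 1.25, 1.54 and 1.33 on the positive and 2.27, 2.16 and 2.40 on the negative arrays (−0.90 ± 0.13, adjusted p = 0.00394). Pcna levels were 5.83, 6.00 and 5.56 against 6.75, 6.60 and 6.83, a 1.90-fold difference (−0.93 ± 0.15, adjusted p = 0.00567). Neither gene's groups overlapped. Rfc5 (−0.66, adjusted p = 0.0144), Rfc1 (−0.55, adjusted p = 0.0119) and Rfc4 (−0.57, adjusted p = 0.0337) fell by less. None of these 3 was called with quantile normalization (adjusted p from 0.105 to 0.290) or without negative replicate 1 or 3, with a largest adjusted p of 0.116 for Rfc4. Rfc4 also lost its call without positive replicate 2 or 3 or negative replicate 2. Rfc2 was not called (−0.38, 95% interval −0.82 to 0.07).

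Polymerase alpha with its primase starts each strand, polymerase epsilon extends the leading and polymerase delta the lagging strand. Of 9 genes 7 were called lower, against 24.4% of all genes, and all 9 had a difference below 0, with a median of −0.67. The catalytic epsilon subunit Pole had levels of 4.02, 4.25 and 4.08 on the positive and 4.86, 4.89 and 4.94 on the negative arrays (−0.78 ± 0.11, adjusted p = 0.00377). The negative arrays were tightly grouped and all above the positive ones. A further Pole probe showed a larger drop of −1.26 ± 0.15, and a last one was not above background. The second epsilon subunit Pole2 fell 1.83-fold (−0.87 ± 0.15, adjusted p = 0.00733). The primase subunits Prim1 and Prim2 both fell by 0.60 on the log2 scale, with adjusted p of 0.0118 and 0.0116. The delta subunits Pold1 (−0.67, adjusted p = 0.0175), Pold2 (−0.97, adjusted p = 0.0437) and Pold3 (−0.57, adjusted p = 0.0361) fell as well, but each call ended under quantile normalization. Each also ended without positive replicate 3 or without negative replicate 1 or 3, with largest adjusted p of 0.0705, 0.133 and 0.108. Those of Pold2 and Pold3 ended without negative replicate 2 too, that of Pold3 without positive replicate 2, and that of Prim1 without negative replicate 3 (adjusted p = 0.0501).

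The alpha subunits Pola1 and Pola2 were not called. Pola1, the catalytic subunit, differed by −0.23 (95% interval −0.72 to 0.27), overlapped between the groups and stood at 0.01 with quantile normalization. Pola2 levels were −2.02, −0.57 and −0.98 on the positive and 0.04, −0.51 and −0.19 on the negative arrays, and its difference of −0.97 ± 0.38 was not called (adjusted p = 0.0937). Of the smaller delta and epsilon subunits, which are not among the 53 genes, Pole3 fell (−0.60, adjusted p = 0.0286), and Pold4 (0.34, adjusted p = 0.164) and Pole4 (−0.59, adjusted p = 0.597) were not called. Positive replicate 1 was the lowest array of Pola2, and also of Cdc45, Gins2, Slbp and Pold2, where it lay at least 0.7 below the other positive arrays.

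Replication protein A coats single-stranded DNA at the fork. Its subunit Rpa2 had levels of 2.16, 2.32 and 2.15 on the positive and 3.11, 2.84 and 3.06 on the negative arrays (−0.79 ± 0.12, adjusted p = 0.00525). Rpa1 stood at 5.46, 5.36 and 5.31 against 6.10, 5.97 and 6.19 (−0.71 ± 0.11, adjusted p = 0.00550), and with quantile normalization its adjusted p was 0.0502. In both, every negative array exceeded every positive one. The smallest subunit, Rpa3, was not called (−0.35, 95% interval −0.77 to 0.07), overlapped between the groups, and stood at 0.02 with quantile normalization.

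Lagging-strand fragments are trimmed by the flap nuclease Fen1 and sealed by DNA ligase 1. Fen1 levels were 4.72, 4.93 and 4.62 on the positive and 5.64, 5.59 and 5.63 on the negative arrays, 1.82-fold apart (−0.86 ± 0.12, adjusted p = 0.00370). Lig1 fell by less (−0.53 ± 0.10, adjusted p = 0.0106) and was not called with quantile normalization (adjusted p = 0.224). Ung, which removes uracil from DNA, was not called (−0.32, 95% interval −1.06 to 0.41). Its levels were 6.47, 5.33 and 5.45 against 6.17, 5.98 and 6.07, with the dim positive replicate 1 the highest of all 6 arrays. Without that array the Ung difference was −0.68 and was called, and with quantile normalization on all arrays it was 0.01.

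Deoxynucleotides are made by ribonucleotide reductase, thymidylate synthase and, by salvage, thymidine kinase. Tk1 levels were 3.68, 3.60 and 3.41 on the positive and 4.45, 4.33 and 4.39 on the negative arrays (−0.83 ± 0.12, adjusted p = 0.00376). The small reductase subunit Rrm2, known as the S-phase limited one, had 6.14, 5.89 and 5.57 against 7.05, 7.0 and 7.28. That was a 2.37-fold difference (−1.24 ± 0.17, adjusted p = 0.00381). Its large partner Rrm1 stood at 4.05, 4.31 and 4.05 against 4.89, 4.82 and 4.91 (−0.74 ± 0.12, adjusted p = 0.00566). None of these groups overlapped. Thymidylate synthase, Tyms, was not called (−0.59 ± 0.19, adjusted p = 0.0548), although its groups did not overlap either.

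The activators E2f1 and E2f2, which switch on genes of S phase and are themselves transcribed at its start, both fell, and the 3 activators had the lowest median of any role, −1.25. E2f2, measured at chr4:135750562-135750621 (mm9), had levels of 2.42, 2.65 and 2.50 on the positive and 3.88, 3.75 and 3.82 on the negative arrays. The gap between the groups far exceeded the spread within them, a 2.45-fold difference (−1.29 ± 0.11, adjusted p = 0.000846). For E2f1 the levels were 1.91, 2.34 and 2.25 against 3.62, 3.26 and 3.37, 2.37-fold apart (−1.25 ± 0.16, adjusted p = 0.00314). Both calls held under every scaling and without each array in turn. E2f3 differed by −0.60 ± 0.19 and narrowly missed the threshold (adjusted p = 0.0515). A further E2f3 probe gave −0.25 ± 0.17.

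Behind the fork, chromatin assembly factor 1 deposits histones, Uhrf1 brings the maintenance methyltransferase Dnmt1 to hemimethylated DNA, and Slbp binds the stem-loop of histone transcripts. Chaf1b levels were 4.81, 4.96 and 4.75 on the positive and 5.99, 5.93 and 6.03 on the negative arrays, a 2.20-fold difference (−1.14 ± 0.11, adjusted p = 0.00112). Uhrf1 stood at 6.01, 5.90 and 5.64 against 6.87, 6.64 and 6.95 (−0.97 ± 0.15, adjusted p = 0.00486). The positive and negative arrays of both genes were apart. Dnmt1 fell too (−0.77 ± 0.14, adjusted p = 0.00948), as did Chaf1a (−0.75 ± 0.20, adjusted p = 0.0318), whose call ended with quantile normalization. Chaf1a also lost its call without positive replicate 3 and without negative replicates 1 or 3, with a largest adjusted p of 0.105. Slbp was not called (−0.87, 95% interval −1.61 to −0.14, adjusted p = 0.0671).

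Of the 53 genes, 11 had several probes above background, and all probes of a gene had the same sign. Their differences lay a median of 0.08 apart, at most 0.48 (Pole). Replication genes with and without an E2F element in the promoter had like medians. Of the 19 with a match 15 were called lower, with a median of −0.79. Of the 27 without one 20 were called lower, also with a median of −0.79, against 24.4% of all genes. Over all tested genes the median was −0.31 with a match and −0.18 without one. The part of the element in these differences was not tested.

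Genes around this machinery moved in part with it. Of 31 other replication factors (origin, checkpoint, fork protection and repair genes), 19 were called lower and 0 higher (against 24.4% and 10.6% of all genes), with a median of −0.68. Clspn, an adaptor of the replication checkpoint, had levels of −0.82, −0.91 and −0.91 on the positive and 0.00, −0.12 and 0.04 on the negative arrays (−0.86 ± 0.10, adjusted p = 0.00253). The helicase Recql4 fell by as much (−0.87 ± 0.11, adjusted p = 0.00309). The count called lower was 13 with quantile normalization (background 13.3%), with normexp and quantile normalization (14.3%) and with the series matrix values (14.5%). The medians were then −0.43, −0.37 and −0.38. Without 1 array, 12 to 19 of the 31 were called lower, fewest without positive replicate 3 or negative replicate 3 (backgrounds of 14.7% and 12%).

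The wider nucleotide pathways had a median near that of the replication genes. Of 18 other genes of nucleotide synthesis, 12 were called lower and 0 higher (against 24.4% and 10.6% of all genes), with a median of −0.80. With quantile normalization 10 were called lower and 1, Ctps2, higher (against 13.3% and 11.4% of all genes). Ctps, which makes CTP from UTP, had levels of 4.09, 4.13 and 3.91 on the positive and 5.57, 5.22 and 5.66 on the negative arrays, a 2.71-fold difference (−1.44 ± 0.15, adjusted p = 0.00163). The folate enzyme Mthfd1 fell 2.46-fold (−1.30 ± 0.14, adjusted p = 0.00184) and Umps, the last step of UMP synthesis, 2.28-fold (−1.19 ± 0.15, adjusted p = 0.00261). Rrm2b, the reductase subunit used outside S phase, did not pass the filter on dim probes. None of the 17 of these genes with a promoter held an E2F element. Without negative replicate 3, 8 of the 18 were called lower (background 12%), and without positive replicate 1, 17 (background 26.8%).

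Among 23 other E2F factors, pocket proteins, cyclins and inhibitors of S phase entry, 11 were called lower and 1 higher, with a median of −0.49. The gene called higher was Cdkn1c, the inhibitor p57 of cyclin-dependent kinases, with levels of 7.01, 7.11 and 7.15 on the positive and 5.68, 5.39 and 5.64 on the negative arrays. All positive arrays were above all negative ones, 2.87-fold on average (1.52 ± 0.12, adjusted p = 0.000680). A further inhibitor, Cdkn1a, which encodes p21, went the other way, with −4.74, −4.35 and −3.83 against −2.25, −1.93 and −2.61. It was called lower (adjusted p = 0.00350), but was well above background on only 2 of the 3 positive arrays. The size of its log2 difference depended on the scaling, at −2.04 as scaled here, −2.54 with quantile normalization, −0.89 with normexp and −0.86 with the series matrix values. The repressor E2f7 fell with the activators (−0.77 ± 0.13, adjusted p = 0.00753). E2f4, Ccne2, Cdkn2a and Cdkn2b did not pass the filter on dim probes. The 11 genes compare with a background of 24.4%, and the 1 called higher with 10.6%. The count called lower was 4 without negative replicate 1 (background 12.3%) or without negative replicate 3 (12%), and 5 with quantile normalization (13.3%). With quantile normalization 2 were called higher (background 11.4%), Cdkn1c and the inhibitor Cdkn1b (0.58, adjusted p = 0.0160). Cdkn1b was also called higher with normexp and with the series matrix values, but not as scaled here (0.30, adjusted p = 0.104).

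Of 13 other genes of chromatin copying, 8 were called lower and 0 higher (against 24.4% and 10.6% of all genes), with a median of −0.57. Cdca7, a partner of the remodeller Hells, fell 2.09-fold (−1.07 ± 0.17, adjusted p = 0.00559). The histone acetyltransferase Hat1 (−1.0 ± 0.17, adjusted p = 0.00677) and Hells itself (−0.89 ± 0.16, adjusted p = 0.00761) followed. With quantile normalization 4 of the 13 were called lower and 1 higher, against 13.3% and 11.4% of all genes. Without 1 array 5 to 8 were called lower, against 12% to 26.8% of all genes.

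Genes of mitosis lay close to the median of all genes. Of 19 tested, 2 were called lower and 0 higher (against 24.4% and 10.6% of all genes), with a median of −0.26, which is −0.09 relative to all genes, whereas that of the replication genes was −0.59 by the same measure. Birc5, of the chromosomal passenger complex, had levels of 6.69, 6.75 and 6.45 on the positive and 7.12, 7.12 and 7.20 on the negative arrays (−0.52 ± 0.12, adjusted p = 0.0193). The checkpoint kinase Bub1 fell by 0.55 (adjusted p = 0.0354), and Tpx2, a spindle factor, was not called (−0.36 ± 0.13, adjusted p = 0.0684). The sign of the mitosis median depended on scaling: it was 0.05 with quantile normalization and 0.03 with the series matrix values or with normexp and quantile normalization. In each of these, 0 were called lower and 1 higher, where 13.3% to 14.5% of all genes were called lower. With median centring 0 were called in either direction (17.0% of all genes were called lower). No mitosis gene was called lower when positive replicate 3, or either of negative replicates 1 and 3, was left out. Aurkb did not pass the filter on dim probes. The difference between the lists was not tested.

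**Figure D4:**
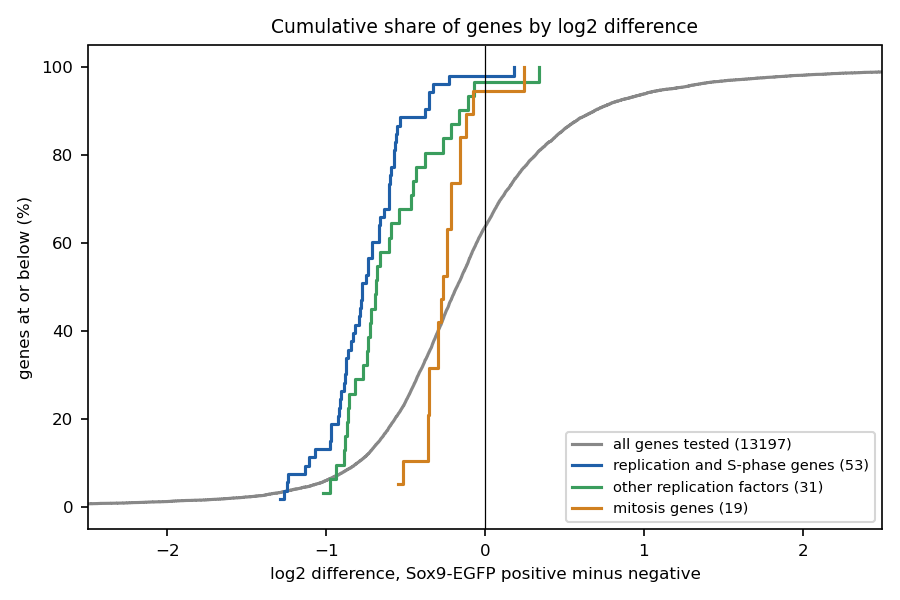
Cumulative share of genes (vertical axis, percent) at or below each log2 difference (horizontal axis, Sox9-EGFP positive minus negative) for all 13197 tested genes, the 53 replication genes, 31 other replication factors and 19 mitosis genes. The replication curve lies left of that of all genes, with medians of −0.77 and −0.18, while the mitosis curve rises around −0.26.

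Marker genes of cell types differed between the sorted groups beside these results. All 6 limb mesenchyme markers were well above background, 2 higher (Pdgfra and Tbx5) and 2 lower (Twist1 and Hoxd13) in the positive cells, with a summed level of 92.8 to 101 on the positive and 135 to 145 on the negative arrays (linear scale, the 75th percentile being 1). Of 7 ectoderm markers 3 were called higher in the positive cells, Krt18, Krt8 and Trp63, with sums of 22.2 to 36.6 against 9.17 to 11.53. Epcam (−0.43, adjusted p = 0.167) and Krt14 (−0.03, adjusted p = 0.937) were not called, and Krt5 and Cdh1 did not pass the filter. Of 5 markers of muscle precursors 3 were called lower, with sums of 0.061 to 0.124 against 0.495 to 1.11. On the positive arrays, Pax3 and Myod1 exceeded background 0 times and Lbx1 on 1 array, and Pax7 and Myf5 did not pass the filter. Of 4 Schwann and neural crest markers Sox10 was higher, above background on 3 positive and 1 negative arrays, with sums of 1.25 to 1.44 against 0.924 to 0.958, and Foxd3 did not pass the filter. Their part in the lower level of the replication genes was not tested.

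Blood markers stood out on 1 array. Of 6 red blood cell markers 0 were called (Alas2 did not pass the filter), and their sum was 42.9 on negative replicate 2 against 1.06 to 4.89 on the other 5 arrays. Csf1r alone of 5 white blood cell markers passed the filter, and their sum was 11.1 on negative replicate 2 and at most 1.74 elsewhere. Without that array 37 replication genes were called lower (background 21.0%), with a median of −0.84. Of 5 endothelial markers 2 were tested and 0 called (Cdh5, Tek and Emcn did not pass the filter), with sums of 2.75 to 7.84 on the positive and 1.85 to 4.69 on the negative arrays, the highest on the dim positive replicate 1. Without that dim array 42 replication genes were called lower (background 26.8%), with a median of −0.69.

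**Figure D5:**
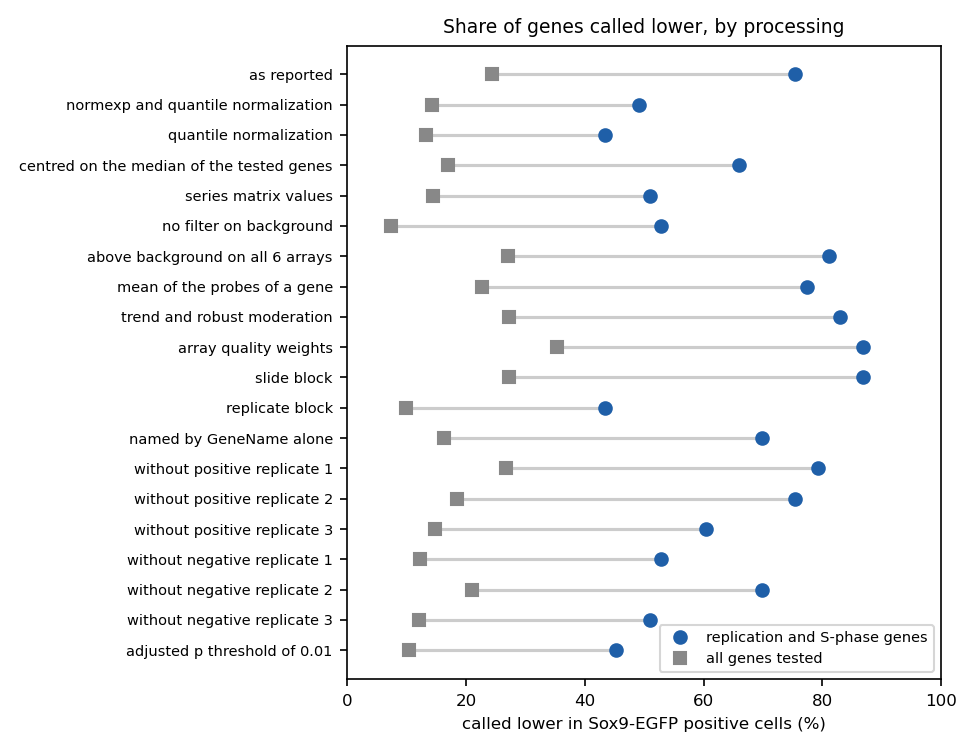
Share of genes called lower in Sox9-EGFP positive cells (horizontal axis, percent) under each way of processing the arrays, for the 53 replication genes (circles) and for all genes tested (squares). The share of replication genes was 75.5% against 24.4% as reported, and the circle lies right of the square in every row.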

How the data were processed

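Total RNA of 6 samples was measured on 1-colour Agilent arrays of 62976 spots. The deposited intensity files come from Feature Extraction 10.7.3.1, per the file headers: the authors' software had corrected spots for background within an array, with no scaling across arrays. A deposited series matrix gives the authors' log2 values, which have the same median (6.41) in every column and look quantile normalized; no source read here states their background correction.

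Processed intensities of the 59305 non-control spots were converted to log2 and centred on each array's 75th percentile, and replicate spots were averaged. Probes were named through transcript accessions or symbols in a table of mouse RefSeq genes. Dim probes were dropped unless each of the 3 arrays of some group had them well above background, and the brightest probe stood for a gene. The test was limma 3.58.1 (R 4.3.3) over 13197 genes, with Benjamini-Hochberg adjustment and a threshold of 0.05. The fit was tested on simulated data in which 200 of 13197 genes were changed. It recovered 10% of 1.5-fold, 46% of 2-fold, 86% of 4-fold and 96% of 8-fold changes. Far more genes, 4617, were called in the data themselves, so these shares need not apply to them. The smallest exact p that 3 against 3 arrays allow is 0.1, and the number of arrays limits the precision.

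The members and lists were chosen with earlier results of these data known. Per-array levels are given for the 20 called genes with the smallest adjusted p, the first of each role, Mcm6 as the brightest and some genes chosen after their values were seen (Cdc45, Cdc7, Pola2, Ung); up to 3 genes are named per other list, and some genes of these lists are not reported here. Alternatives were other scalings, filters, moderation, blocks, a threshold of 0.01 and leaving out each array. The labels do not say whether equal replicate numbers pair samples. Deviations from the group mean correlated at −0.27, −0.42 and 0.16 between arrays of equal number. Between arrays of the same slide they correlated at 0.46, 0.36 and 0.23. With 3 arrays per group and slides shared in this way, these values cannot decide whether the numbers pair samples. Promoter letters were read from the RefSeq table, and probe positions are in mm9, the build the files use.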

Additional observations from a re-analysis of the deposited data

How the results depend on the processing

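Of the 40 called replication genes, 20 kept their call under all 18 alternatives at the threshold of 0.05, and 26 kept it without each array in turn. The matching shares of all called genes are not given here, so these counts do not set the replication genes apart. The number called lower was 26 with normexp and quantile normalization, 23 with quantile normalization, 23 with the replicate number as a block, and 24 at a threshold of 0.01. The median difference was −0.48 with normexp and quantile normalization, −0.47 with quantile normalization, −0.62 with median centring and −0.49 with the series matrix values. All genes called numbered 2656 without the background filter, 2157 with the replicate block and 2109 at 0.01. Leaving out 1 array gave 27 to 42 replication genes called lower, medians of −0.84 to −0.69, and 2485 to 5176 of all genes called, with 2911 without positive replicate 3, 2542 without negative replicate 1 and 2485 without negative replicate 3. Slide as a block gave 46 replication genes.

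The sign of Rpa3 turned to 0.00062 with normexp and quantile normalization and 0.019 with quantile normalization, those of Pola1 (0.0052) and Ung (0.0062) turned with quantile normalization, and that of Cdc7, with 1 array left out, ranged from −0.064 (without positive replicate 1, the one change of sign) to 0.31. The causes were not tested. All 53 genes were well above background on all 6 arrays and 0 were saturated.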
